A study of Mus musculus with 6 samples.

Results

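Expression of 10 genes of the osteoclast and cell fusion program (Dcstamp, Ocstamp, Nfatc1, Ctsk, Acp5, Tnfrsf11a, Oscar, Atp6v0d2, Mmp9 and Calcr) was examined in tumor-associated macrophages (TAMs). The genes were taken by symbol from a list of macrophage fusion and osteoclast genes and matched to Ensembl gene IDs. All 10 were found among the 55421 genes of the count table, and all 10 passed the expression filter, which left 14469 genes for testing.

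Osteoclasts are multinucleated bone-resorbing cells that form by fusion of precursors of the monocyte-macrophage lineage. The cytokine RANKL binds its receptor RANK on these precursors and, together with costimulatory receptors that signal through ITAM adaptors, induces the transcription factor NFATc1, which switches on fusion proteins, the proton pump and the enzymes that dissolve bone matrix. Macrophages outside bone can use parts of the same program, and several of its enzymes are ordinary lysosomal or secreted proteins of tissue macrophages.

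TAMs were sorted as live CD45+CD11b+F4/80+Ly6G- cells from MC17-51 fibrosarcomas (M17 in the labels), grown from a transplanted mouse fibrosarcoma cell line in adult mice and collected on day 15. Both groups, Pdcd1f/f and Pdcd1f/fLysMcre, carry a floxed Pdcd1 gene, which encodes the inhibitory receptor PD-1. Pdcd1f/fLysMcre mice also carry Cre recombinase driven by the lysozyme M promoter, which is active in macrophages, monocytes and neutrophils, whereas Pdcd1f/f mice have no Cre and served as controls. Each genotype has 3 libraries, and because no source states that each came from a separate mouse, p-values measure the spread between these libraries only. The comparison asks whether removal of PD-1 from myeloid cells changed these genes in TAMs. Since only Pdcd1f/fLysMcre mice carry Cre, effects of Cre, of their lower lysozyme M (Lyz2) level given below and of PD-1 removal cannot be told apart.

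The 6 libraries held between 41833823 and 51417209 counts, so that 3 counts correspond to between 0.0583 and 0.0717 counts per 1000000 counts (CPM), a floor that covers counting error only. Pdcd1 was scarce in every library, with 10, 12 and 15 counts in Pdcd1f/f and 7, 16 and 11 counts in Pdcd1f/fLysMcre TAMs, so its level did not check the genotype, whereas Lyz2, the gene whose promoter drives Cre, was at 216864 normalized counts in Pdcd1f/f and 427 in Pdcd1f/fLysMcre TAMs. Summed Y-linked transcripts (32.6 to 40.4 CPM in Pdcd1f/f, 133 to 153 CPM in Pdcd1f/fLysMcre) and Xist (366 to 560 CPM against 181 to 279 CPM) also separated the genotypes, so an effect of the sex of the mice and an effect of genotype cannot be told apart. Both kinds of transcript were present in every library, and the paper reports as many male as female mice in all experiments. In Pdcd1f/f replicate 1 and Pdcd1f/fLysMcre replicate 2, genes of low GC content read higher than in the other libraries of their genotype: the rank correlation across 14454 genes between GC content and a library's deviation from its genotype mean was -0.579 and -0.490, against 0.117 to 0.511 in the other 4. Values with GC and length offsets, or without these libraries, are given for those of the 10 genes whose call or sign they change.

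Of the 10 genes, 3 were higher in Pdcd1f/fLysMcre TAMs. They were Dcstamp, a fusion protein of osteoclasts and giant cells, Oscar, a collagen-binding costimulatory receptor, and Nfatc1, the transcription factor of the program, and the increases were small (1.36-fold, 1.24-fold and 1.19-fold). No gene of the 10 was lower. Ocstamp, Ctsk, Acp5, Tnfrsf11a, Atp6v0d2, Mmp9 and Calcr did not pass the test. Calls used edgeR's two-sided quasi-likelihood test with Benjamini-Hochberg adjustment over all 14469 genes and an adjusted p under 0.05. The background was 2.42% of all tested genes called higher and 3.01% called lower (5.43% in either direction). At an unadjusted p under 0.05, 4 of the 10 genes were higher and 1, Ctsk, was lower in edgeR, where 1780 and 1724 of the 14469 genes were. DESeq2 called 3 of the 10 higher and 0 lower, against 13.1% of all genes it tested called in either direction.

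The median log2 difference over the 10 genes was 0.12, against a median near 0 (-0.0026) over all genes tested. Signs were mixed, with 6 of the 10 genes above 0 and 4 below it. The libraries of the genotypes did not overlap, with Pdcd1f/fLysMcre higher, for the same 3 genes, where 14.7% of all tested genes showed this order. Ctsk alone had all Pdcd1f/fLysMcre libraries below all Pdcd1f/f libraries, an order seen in 12.8% of all tested genes, and the other 6 genes overlapped.

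**Figure D1:**
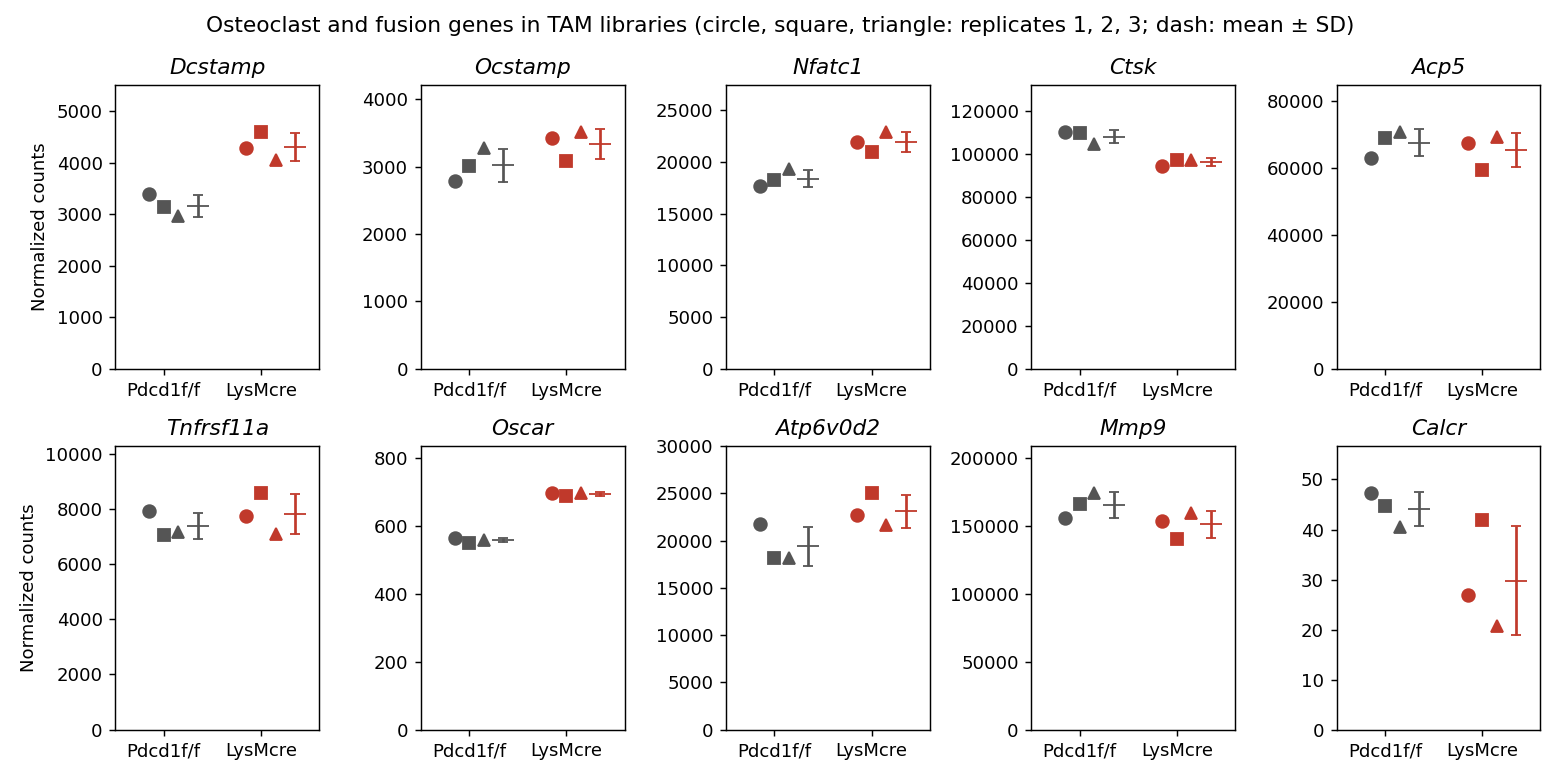
Normalized counts of each gene (vertical axes from 0) in the 3 Pdcd1f/f libraries (grey) and the 3 Pdcd1f/fLysMcre libraries (red, LysMcre); circles, squares and triangles are replicates 1, 2 and 3, and the dash with bars is the mean ± SD. Dcstamp, Nfatc1 and Oscar have all red points above all grey points, Ctsk has them below, and the other 6 genes overlap.

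The 10 genes spanned a wide range of expression. Compared per length, as CPM per kilobase of exon (RPKM, mean of all 6 libraries), the enzymes stood at the top. Ctsk was at 1431 RPKM and ranked 13 among all genes of the table. Mmp9 followed at 946 RPKM with rank 28, and Acp5 at 693 RPKM with rank 49. Bone-matrix enzymes were thus among the most abundant transcripts of these TAMs in both genotypes.

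The pump subunit Atp6v0d2 was at 166 RPKM (rank 282) and Nfatc1 at 57.2 RPKM (rank 869). Below them Dcstamp was at 29.8, Tnfrsf11a at 26.9 and Ocstamp at 18.4 RPKM. The receptors Oscar and Calcr were the scarcest, with Oscar at 7.20 RPKM (rank 5496) and Calcr at 0.200 RPKM (rank 13642). Only Dcstamp and Tnfrsf11a, neighbours in this order, overlapped over the 6 libraries: Dcstamp was the lower of the pair in Pdcd1f/f TAMs (25.2 ± 1.70 against 26.1 ± 1.61 RPKM, mean ± SD, 3 libraries each) and the higher in Pdcd1f/fLysMcre TAMs (34.3 ± 2.13 against 27.7 ± 2.59 RPKM).

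**Figure D2:**
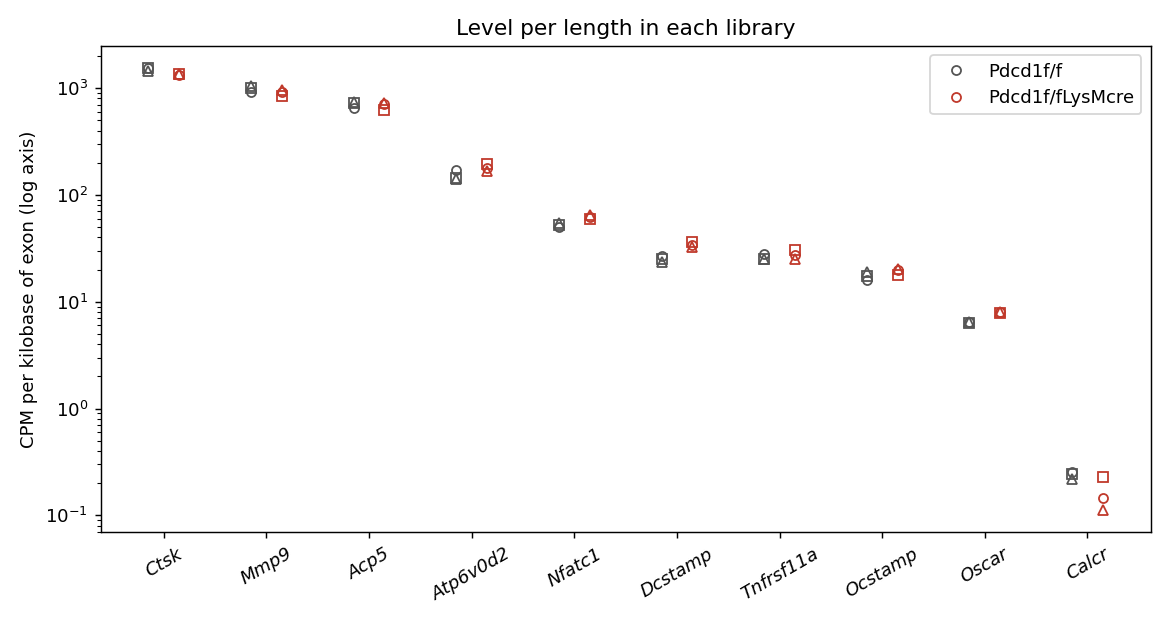
CPM per kilobase of exon (RPKM) on a log axis for the 10 genes in order of their mean level, with Pdcd1f/f libraries in grey and Pdcd1f/fLysMcre libraries in red (circle, square and triangle are replicates 1, 2 and 3). Levels run from 1431 for Ctsk to 0.200 for Calcr, and every pair of neighbours is apart in all libraries other than Dcstamp and Tnfrsf11a.

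Among the receptors, Tnfrsf11a encodes RANK, the receptor for RANKL, and lies on chromosome 1 (GRCm38 chr1:105780718-105847981, plus strand), 11.7 Mb from Pdcd1. The normalized counts of Tnfrsf11a in replicates 1, 2 and 3 were 7908, 7038 and 7151 for Pdcd1f/f, and for Pdcd1f/fLysMcre 7741, 8573 and 7106. The genotypes overlapped, with the highest value in Pdcd1f/fLysMcre replicate 2 and the lowest in Pdcd1f/f replicate 2. The log2 difference was 0.09 with a 95% interval of -0.09 to 0.26 (adjusted p = 0.542, edgeR). None of 17 alternative fits brought Tnfrsf11a past the threshold. The transcript of its ligand, Tnfsf11 (RANKL), was itself scarce, between 5 and 31 counts per library, and did not pass the test (adjusted p = 0.259, edgeR). Its log2 difference of 1.10 had a 95% interval of -0.15 to 2.36 and was not resolved at these counts.

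Oscar encodes a receptor that binds collagen and signals through the FcR gamma adaptor to raise calcium and activate NFATc1 (chr7:3609813-3616157, minus strand). Its normalized counts were 566, 552 and 561 in Pdcd1f/f and 698, 690 and 698 in Pdcd1f/fLysMcre TAMs. Every Pdcd1f/fLysMcre library was above every Pdcd1f/f library, and the libraries of a genotype lay close together. The mean rose from 559 ± 6.96 to 695 ± 4.82 normalized counts (SD, n = 3), a log2 difference of 0.32 with a standard error of 0.08 and an adjusted p of 0.0492 in edgeR. This spread between replicates, 1.24% and 0.693% of the mean, was smaller than the 4.31% and 3.70% that counting error alone gives at this depth. The error of Oscar is thus larger than its observed spread, and edgeR's estimate of the spread also draws on other genes.

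The call for Oscar was close to the threshold and held in 6 of 17 alternative fits. It was lost with RLE size factors, library size alone, no expression filter, the genes of the normalized table, limma-trend and the replicate block (adjusted p between 0.0504 in edgeR with RLE size factors and 0.0675 in edgeR with the block). Leaving out any library other than Pdcd1f/f replicate 1 ended it, with adjusted p-values in edgeR of 0.227 and 0.162 without Pdcd1f/f replicates 2 and 3 and of 0.169, 0.106 and 0.106 without Pdcd1f/fLysMcre replicates 1, 2 and 3. The log2 difference itself stayed between 0.30 and 0.35 over the 17 fits.

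Calcr encodes the calcitonin receptor, a surface marker of mature osteoclasts through which calcitonin halts resorption (chr6:3685680-3764714, minus strand). It was near the lower limit of the test, with 51, 40 and 37 raw counts in Pdcd1f/f and 29, 44 and 21 in Pdcd1f/fLysMcre TAMs. Pdcd1f/fLysMcre replicate 2 lay within the range of the controls and the other Pdcd1f/fLysMcre libraries lay below it. The mean was 44.2 ± 3.42 against 29.8 ± 10.9 normalized counts, and the log2 difference of -0.56 had a 95% interval from -1.23 to 0.10 (adjusted p = 0.273, edgeR). At this depth the difference in Calcr was not resolved. Levels of 0.239 and 0.162 RPKM set it far below the other genes of the program.

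Nfatc1, on the minus strand of chromosome 18, encodes the master transcription factor of osteoclast differentiation, which is activated by calcineurin and amplifies its own transcription. The control libraries (replicates 1, 2 and 3) had 17707, 18199 and 19260 normalized counts, and the libraries with Cre had 21900, 20953 and 22854. All Pdcd1f/fLysMcre libraries were above all Pdcd1f/f libraries. Mean levels rose from 18389 ± 794 to 21903 ± 950 normalized counts, or from 52.1 to 62.2 RPKM. The log2 difference was 0.25 with a standard error of 0.06 and a 95% interval of 0.11 to 0.39 (adjusted p = 0.0441, edgeR). An annotated antisense gene that overlaps Nfatc1, AC123818.1, had 0 to 6 counts per library.

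As for Oscar, the call for Nfatc1 depended on single libraries, and it held in 10 of 17 alternative fits. It was kept without Pdcd1f/f replicate 1 (adjusted p = 0.0313, edgeR) and lost without Pdcd1f/f replicate 2 (0.220) or 3 (0.0811) and without Pdcd1f/fLysMcre replicate 1 (0.163), 2 (0.0573) or 3 (0.118). With offsets for GC content and length the Nfatc1 difference was larger, 0.34 on the log2 scale (adjusted p = 9.3e-06, edgeR). Without both libraries that stand apart by GC content it was 0.25, as in the main fit (adjusted p = 8.5e-04, edgeR).

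Promoters of 3 genes that NFATc1 is known to activate in osteoclasts, Oscar, Acp5 and Ctsk, are shown because the first rose with Nfatc1 in these TAMs and the others did not. Each is the 250 bases before a RefSeq start site (GRCm38.p6), the one nearest to the annotated start of the gene, written 5′ to 3′ on the strand of the gene, with motif matches on either strand in capitals: chr7:3616158-3616407 (minus strand) for Oscar, chr9:22135747-22135996 (minus) for Acp5 and chr3:95498960-95499209 (plus) for Ctsk. RefSeq promoters could be matched for 5 of the 10 genes.
Oscar: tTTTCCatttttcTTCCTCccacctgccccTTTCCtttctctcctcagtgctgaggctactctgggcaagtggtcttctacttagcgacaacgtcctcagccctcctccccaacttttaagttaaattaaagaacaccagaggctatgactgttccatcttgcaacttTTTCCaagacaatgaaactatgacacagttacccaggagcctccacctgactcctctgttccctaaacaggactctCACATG
Acp5: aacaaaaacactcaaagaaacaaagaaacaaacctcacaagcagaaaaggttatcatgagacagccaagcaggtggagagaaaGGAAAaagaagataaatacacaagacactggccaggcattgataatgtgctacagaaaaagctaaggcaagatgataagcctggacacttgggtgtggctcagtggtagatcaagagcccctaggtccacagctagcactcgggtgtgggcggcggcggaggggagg
Ctsk: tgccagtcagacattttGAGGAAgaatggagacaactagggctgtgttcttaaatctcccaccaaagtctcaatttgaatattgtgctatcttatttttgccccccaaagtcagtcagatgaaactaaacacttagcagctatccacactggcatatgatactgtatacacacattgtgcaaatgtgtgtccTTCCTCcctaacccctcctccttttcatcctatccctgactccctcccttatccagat

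The motifs searched, on both strands, were the NFAT core GGAAA, the AP-1 site TGANTCA, the PU.1 core GAGGAA (which shares 4 letters with the NFAT core), and the E-boxes CACGTG and CATGTG. The Oscar window held 3 NFAT cores, at -249, -220 and -82 from the start site, 1 PU.1 core and 1 CATGTG. A single NFAT core stood in the Acp5 window shown, and 2 PU.1 cores and no NFAT core in that of Ctsk. Acp5 has other RefSeq start sites further into the gene, whose windows held 1 and 2 NFAT cores, the latter with 1 CATGTG. Such short motifs are common: of 32851 promoter windows of this length, 55.6% held GGAAA, 23.3% GAGGAA, 12.3% CATGTG, 6.75% TGANTCA and 6.02% CACGTG. Of the matched promoters not shown, that of Tnfrsf11a held none of these motifs. The Calcr window nearest to the annotated start held 1 NFAT core, at -65, and its other window none of the motifs. A match describes the letters only, and whether matches go with the differences between genotypes was not tested.

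The fusion proteins Dcstamp and Ocstamp encode multipass membrane proteins that are both needed for precursors to fuse into multinucleated osteoclasts and giant cells. Dcstamp lies on chromosome 15 (chr15:39745930-39760938, plus strand). Control replicates 1, 2 and 3 measured 3390, 3144 and 2964 normalized counts, whereas those of Pdcd1f/fLysMcre mice measured 4289, 4594 and 4056. The lowest Pdcd1f/fLysMcre library was well above the highest Pdcd1f/f library, and the gap between the genotypes was larger than the range within either. From 3166 ± 214 normalized counts the mean rose to 4313 ± 270, a log2 difference of 0.45 with a standard error of 0.07, and an adjusted p of 0.00733 in edgeR. The fold was 1.36 with a 95% interval of 1.22 to 1.53.

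Dcstamp was the gene of the 10 with the largest increase and the one whose call held most often, in 16 of 17 alternative fits. It was lost without Pdcd1f/fLysMcre replicate 1 (adjusted p = 0.0543, edgeR), where the log2 difference was 0.45. Over the 17 fits the log2 difference stayed between 0.40 and 0.49.

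Ocstamp, the partner of Dcstamp, lies on chromosome 2 (chr2:165393760-165400405, minus strand), 0.438 Mb from Mmp9. Pdcd1f/f TAMs had 2787, 3003 and 3277 normalized counts and Pdcd1f/fLysMcre TAMs 3424, 3083 and 3509. The genotypes overlapped, since Pdcd1f/f replicate 3 exceeded Pdcd1f/fLysMcre replicate 2. A log2 difference of 0.15 with a 95% interval of -0.03 to 0.32 did not pass the test (adjusted p = 0.292, edgeR). Without both libraries that stand apart by GC content it was 0.14 and did not pass either (adjusted p = 0.0835, edgeR). With offsets for GC content and length Ocstamp did pass, at a log2 difference of 0.23 (adjusted p = 0.00195, edgeR). With these offsets the log2 difference of Dcstamp was 0.45, and its gap to Ocstamp was not tested. The ratio of Dcstamp to Ocstamp per length was 1.45 ± 0.215 in Pdcd1f/f and 1.78 ± 0.236 in Pdcd1f/fLysMcre TAMs (exact two-sided permutation test, p = 0.2). The smallest p that 3 against 3 libraries can give is 0.1, so this test could not decide whether their responses to genotype differed. This ratio was chosen after the values were seen, and within each genotype it was highest in the library that stands apart by GC content.

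Atp6v0d2 encodes the d2 subunit of the membrane sector of the vacuolar proton pump, which acidifies the resorption space and is also needed for efficient precursor fusion (chr4:19876841-19922605, minus strand). In Pdcd1f/f replicates 1, 2 and 3 it had 21806, 18189 and 18181 normalized counts, against 22691, 25035 and 21612 in the Pdcd1f/fLysMcre libraries. Pdcd1f/f replicate 1 stood apart from its group and exceeded Pdcd1f/fLysMcre replicate 3, so the genotypes overlapped. The log2 difference of 0.26 had a 95% interval of 0.07 to 0.45 and an adjusted p of 0.106 in edgeR. Leaving out Pdcd1f/f replicate 1 raised the difference to 0.34 and brought it past the threshold (adjusted p = 0.00571, edgeR). With offsets for GC content and length it was 0.19 (adjusted p = 0.00231, edgeR), and without both libraries that stand apart by GC content it was 0.28 (adjusted p = 2.5e-04, edgeR).

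The enzymes Ctsk, Acp5 and Mmp9 were the most abundant of the 10 genes and none of them rose. Ctsk encodes cathepsin K, the lysosomal protease that degrades collagen in the resorption space (chr3:95499256-95509362, plus strand). Its normalized counts were 110011, 109493 and 104566 in Pdcd1f/f TAMs and 94206, 96964 and 97279 in Pdcd1f/fLysMcre TAMs. Each Pdcd1f/fLysMcre library was below each Pdcd1f/f library. The means were 108023 ± 3005 and 96150 ± 1691, and the log2 difference of -0.17 (95% interval -0.29 to -0.04) had an adjusted p of 0.113 in edgeR.

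For Ctsk the direction was the opposite of that of Nfatc1, Dcstamp and Oscar. Under the offsets for GC content and length the log2 difference was -0.16 and passed the threshold (adjusted p = 0.00729, edgeR), as it did at -0.16 without both libraries that stand apart (adjusted p = 0.0104, edgeR). The exact two-sided permutation test of the 6 libraries gave p = 0.1 for Ctsk, as for Dcstamp, Nfatc1 and Oscar.

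Acp5 encodes tartrate-resistant acid phosphatase, the histochemical marker of osteoclasts (chr9:22126727-22135711, minus strand). Its level was 63013, 68811 and 70563 normalized counts in Pdcd1f/f and 67306, 59423 and 69018 in Pdcd1f/fLysMcre replicates 1, 2 and 3. The genotypes overlapped over most of their range, and the lowest value of each was in the library that stood apart by GC content. The log2 difference was -0.05 with a 95% interval of -0.21 to 0.12 (adjusted p = 0.746, edgeR). Its sign turned with GC and length offsets (0.07, adjusted p = 0.208, edgeR) and without Pdcd1f/fLysMcre replicate 2 (0.02, adjusted p = 0.930, edgeR). Without both libraries that stand apart by GC content the difference stayed below 0 (-0.03, adjusted p = 0.591, edgeR). The overlapping gene 6530413G14Rik on the other strand had 4 to 14 counts per library.

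Mmp9 encodes gelatinase B, a secreted protease that cleaves denatured collagen and is made by osteoclasts, macrophages and neutrophils (chr2:164940780-164955850, plus strand). Normalized counts were 155480, 166004 and 173946 in Pdcd1f/f and 153738, 139922 and 159137 in Pdcd1f/fLysMcre TAMs. The highest Pdcd1f/fLysMcre library exceeded the lowest Pdcd1f/f library. The log2 difference of -0.13 (95% interval -0.28 to 0.03) did not pass the test (adjusted p = 0.296, edgeR), and with offsets for GC content and length it was -0.01. Without both libraries that stand apart by GC content it was -0.12 and passed (adjusted p = 0.0391, edgeR).

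**Figure D3:**
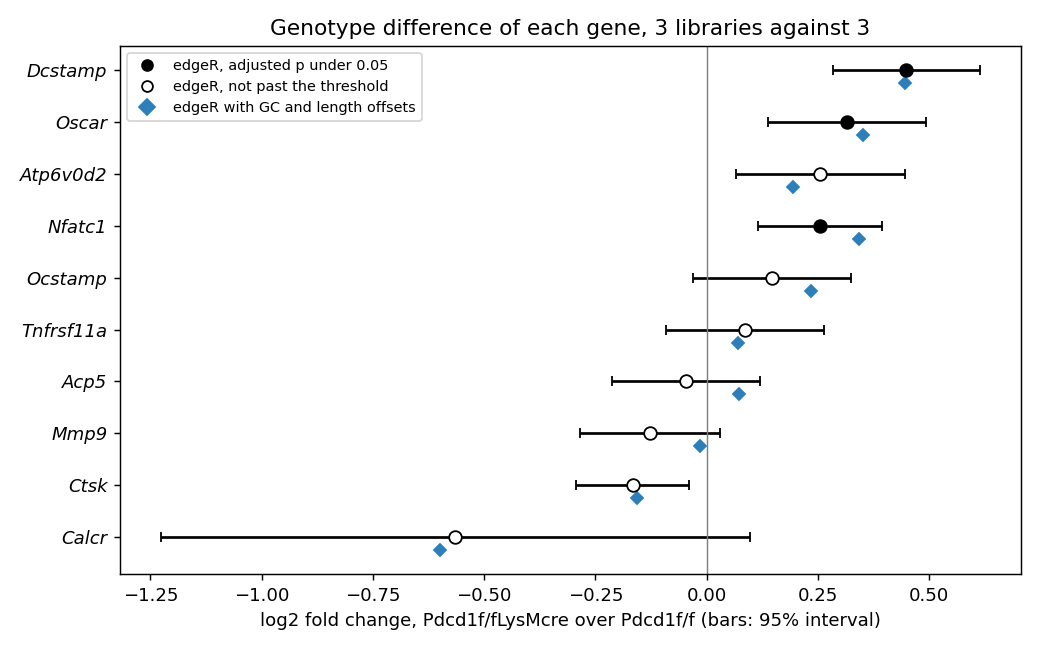
Log2 difference of each gene, Pdcd1f/fLysMcre over Pdcd1f/f, with its 95% interval from edgeR (circles with bars, filled where the adjusted p is under 0.05) and the value with GC and length offsets (blue diamonds). Dcstamp, Oscar and Nfatc1 are filled to the right of 0 at 0.45, 0.32 and 0.25, and only for Acp5 does the diamond lie on the other side of 0.

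Within each genotype the genes varied in a pattern that followed their GC content. The 4 genes with a transcript GC content of 41.6 to 47.9% (Atp6v0d2, Calcr, Dcstamp and Tnfrsf11a) were highest in both Pdcd1f/f replicate 1 and Pdcd1f/fLysMcre replicate 2. Conversely, the 4 genes at 53.5 to 55.9% (Ocstamp, Nfatc1, Mmp9 and Acp5) were lowest in these same 2 libraries. Ctsk and Oscar, at 48.9 and 50.2%, showed neither order and had the smallest relative spread of the 10. For Atp6v0d2, the gene of lowest GC content, Pdcd1f/f replicate 1 was 0.17 above its genotype mean on the log2 scale, and for Acp5, the gene of highest GC content, Pdcd1f/fLysMcre replicate 2 was 0.13 below it (-0.13).

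With offsets for GC content and length 6 of the 10 genes passed the threshold, 5 higher and 1 lower, against 18.9% of all tested genes in either direction, 11.2% higher and 7.73% lower. The 3 added to Dcstamp, Nfatc1 and Oscar were Ocstamp and Atp6v0d2 (higher) and Ctsk (lower). Without both libraries that stand apart by GC content, a setting chosen after the data were seen that leaves 2 libraries per genotype, 6 of the 10 also passed, against 26.2% of all tested genes. These were Dcstamp, Nfatc1, Oscar and Atp6v0d2 (higher) and Ctsk and Mmp9 (lower).

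**Figure D4:**
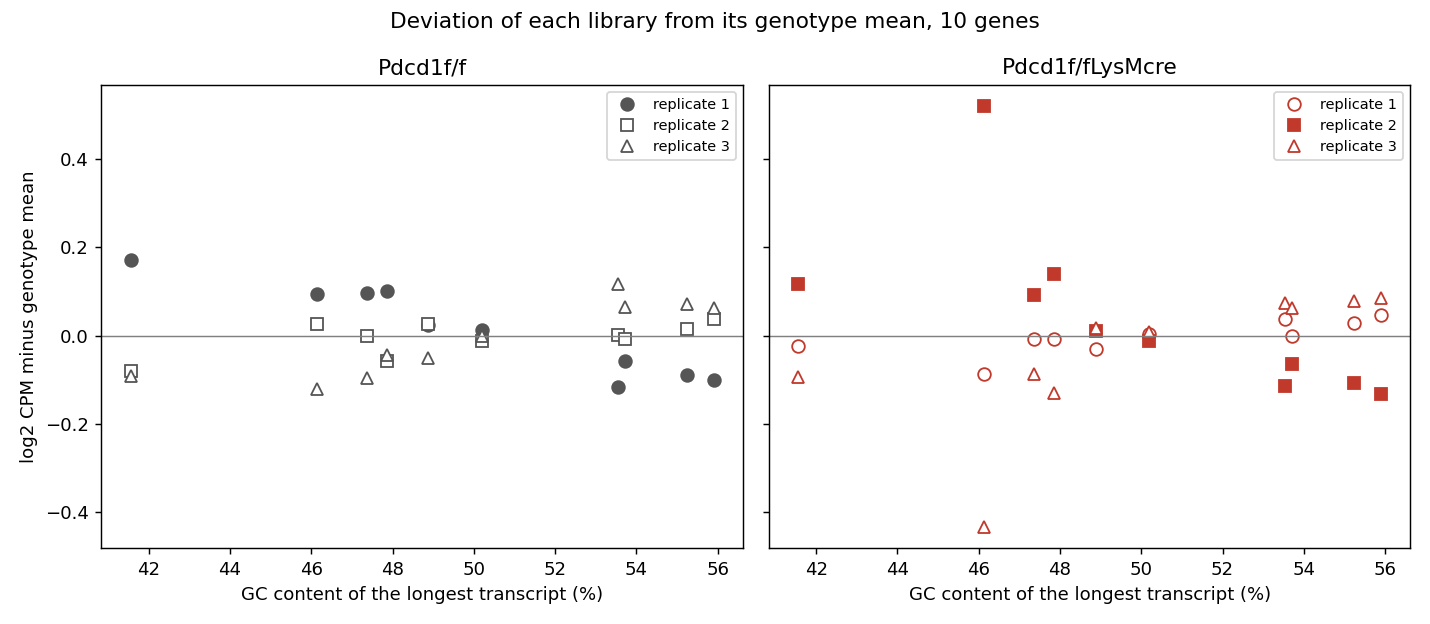
Deviation of each library from the mean of its genotype (log2 CPM, vertical axis) against the GC content of the longest transcript (percent, horizontal axis) for the 10 genes, with Pdcd1f/f on the left and Pdcd1f/fLysMcre on the right. Filled points, Pdcd1f/f replicate 1 and Pdcd1f/fLysMcre replicate 2, lie above 0 for the 4 genes between 41.6 and 47.9% and below 0 for the 4 genes between 53.5 and 55.9%.

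Other genes of the program were grouped by role. Of 32 tested genes of RANK and costimulatory signalling, 2 were higher and 3 were lower in edgeR, where 2.42% and 3.01% of all tested genes were, with a median log2 difference of 0.05. At an unadjusted p under 0.05 the counts were 9 and 4, beside 1780 and 1724 of all 14469 genes, and in DESeq2 6 and 4, beside 755 and 843 of 12224 genes. Itgav and Itgb3, which encode the chains of the vitronectin receptor that anchors osteoclasts to bone, rose by 0.34 and 0.36 on the log2 scale (both adjusted p = 0.0192, edgeR). Csf1r, the M-CSF receptor, was lower (-0.32, adjusted p = 0.0308, edgeR), as were Tyrobp, the ITAM adaptor DAP12 (-0.33, adjusted p = 0.0405), and Trem2, a receptor that signals through it (-0.38, adjusted p = 0.0302). Fcer1g, the FcR gamma adaptor of Oscar, had the highest level per length of this list (807 RPKM) and a log2 difference of -0.03 (adjusted p = 0.793, edgeR). While Oscar was higher, its adaptor thus did not pass the test, and the adaptor of the Trem2 branch was lower.

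The calls of this list depended on single libraries. With 1 library left out, Tyrobp kept its call only without Pdcd1f/f replicate 1, Csf1r, Trem2 and Itgav only without Pdcd1f/f replicate 1 or Pdcd1f/fLysMcre replicate 3, and Itgb3 only without Pdcd1f/f replicate 1 or 3. The adjusted p in edgeR reached 0.207 for Tyrobp, 0.172 for Csf1r, 0.158 for Trem2, 0.130 for Itgav and 0.116 for Itgb3 in these fits.

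Of 25 tested genes of macrophage fusion other than Dcstamp and Ocstamp, 4 were higher and 3 lower (edgeR, against 2.42% and 3.01% of all tested genes), with a median log2 difference of 0.04. The counts were 7 and 6 at an unadjusted p under 0.05 (1780 and 1724 of all 14469 genes), and 5 and 4 in DESeq2 (755 and 843 of 12224 genes). Cd36, a scavenger receptor, and Cd200, a ligand that restrains myeloid cells, rose by 0.94 and 0.86 on the log2 scale (adjusted p = 4.9e-04 and 1.0e-04, edgeR). The hyaluronan receptor Cd44 and the tetraspanin Cd9 rose by 0.37 and 0.28 (adjusted p = 0.00824 and 0.0192, edgeR). In contrast the IL-4 receptor chain Il4ra fell by 0.87, the tetraspanin Cd81 by 0.60 and the adhesion molecule Vcam1 by 0.56 on the log2 scale (adjusted p = 0.00102, 0.00268 and 0.00150, edgeR). The tetraspanins Cd9 and Cd81 thus differed in sign. Cd36, Cd200, Il4ra, Cd81 and Vcam1 kept their calls with any 1 library left out, whereas Cd44 lost it without Pdcd1f/f replicate 2 or Pdcd1f/fLysMcre replicate 1 (adjusted p up to 0.0708, edgeR) and Cd9 kept it only without Pdcd1f/f replicate 1 or Pdcd1f/fLysMcre replicate 2 (adjusted p up to 0.128, edgeR). Lgals3, the most abundant of the list at 734 RPKM, had a log2 difference of 0.15 (adjusted p = 0.143, edgeR).

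Of 18 tested genes of acid secretion and bone resorption, 1 was higher and 0 were lower in edgeR, against 2.42% and 3.01% of all tested genes, with a median of 0.13. At an unadjusted p under 0.05 they were 5 and 0, where 1780 and 1724 of all 14469 genes passed, and in DESeq2 3 and 0, where 755 and 843 of 12224 genes passed. The gene past the adjusted threshold was Spp1, which encodes the matrix protein osteopontin and was also the most abundant of the list (1100 RPKM, log2 difference 0.26, adjusted p = 0.0403, edgeR). With 1 library left out, Spp1 kept its call only without Pdcd1f/f replicate 1 (adjusted p up to 0.190, edgeR). Atp6v0d1, the ubiquitous counterpart of Atp6v0d2 in the proton pump, had a log2 difference of -0.06 (adjusted p = 0.601, edgeR). No pump subunit of the list, nor Atp6v0d2 itself, was called in this test. With offsets for GC content and length 12 genes of RANK and costimulatory signalling were higher and 4 lower, 8 and 6 of macrophage fusion, and 7 and 1 of acid secretion, where 11.2% of all tested genes were called higher and 7.73% lower.

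**Figure D5:**
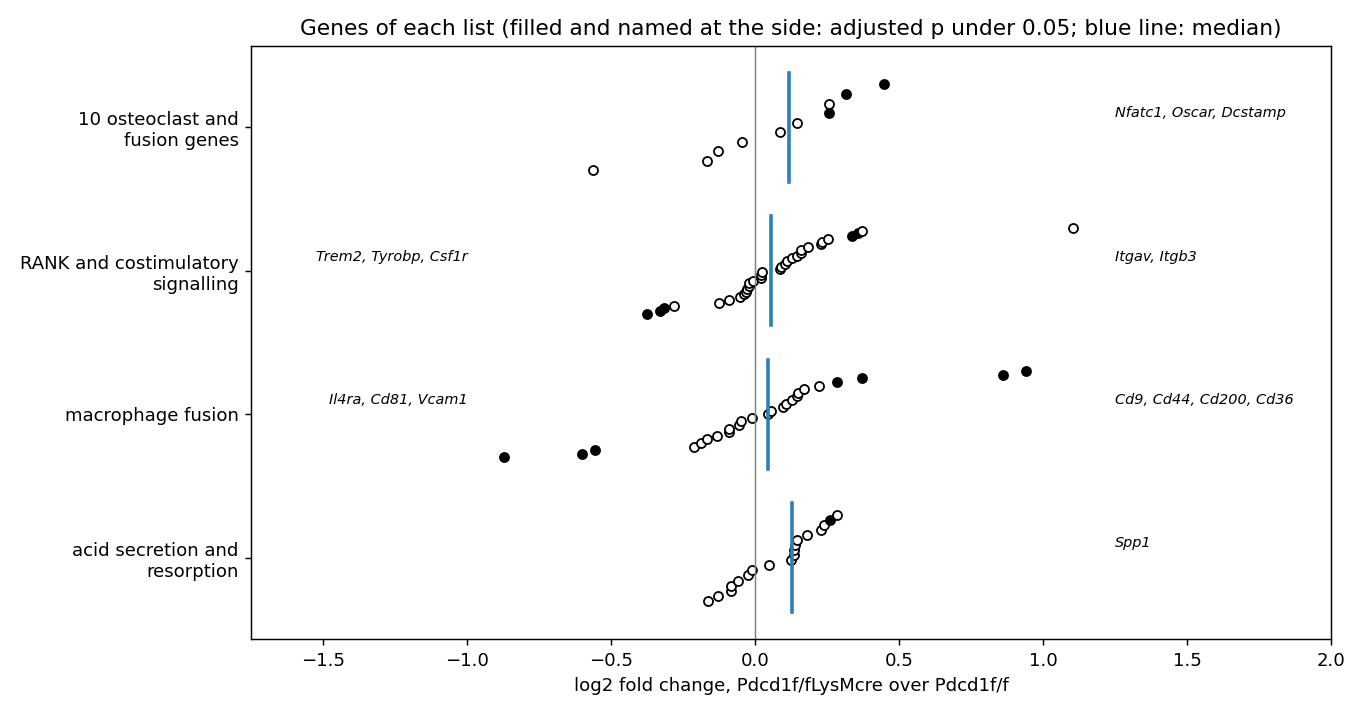
Log2 difference of every tested gene in the 10-gene group and in the lists of RANK and costimulatory signalling, macrophage fusion, and acid secretion and resorption. Filled points have an adjusted p under 0.05 in edgeR and are named at the side of their direction, and blue lines mark the medians, which lie between 0.04 for macrophage fusion and 0.13 for acid secretion.

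The labelled cell type was checked against its markers. All 10 TAM markers were expressed, and 5 of them (Adgre1, Csf1r, Mertk, C1qa and Mrc1) were lower in Pdcd1f/fLysMcre libraries, where 3.01% of all tested genes were lower, with a summed level of 9530 to 9983 CPM in Pdcd1f/f and 8313 to 8428 CPM in Pdcd1f/fLysMcre TAMs. The other TAM markers did not pass: Fcgr1 (-0.21), Itgam (-0.16), Cd68 (-0.06), Ptprc (0.11) and Cd14 (0.15). The median log2 difference of the 10 was -0.26. In bulk samples fewer cells of a type and less RNA per cell cannot be told apart. Summed neutrophil markers were 143 to 147 CPM against 121 to 125 CPM, with Ly6g and Elane at 0 to 3 counts. Of 7 neutrophil markers tested, 2 were lower (Csf3r and Mmp8) and 5 did not pass: Retnlg (-0.95), Cxcr2 (0.03), S100a9 (0.12), S100a8 (0.23) and Padi4 (0.31). The median log2 difference of the 7 was 0.03. Neutrophils also express Mmp9, and their part in its level was not tested.

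Stromal markers summed to 92.8 to 96.7 CPM and 80.3 to 88.2 CPM, and 2 of the 9 tested, Col1a2 (-1.001, adjusted p = 0.0121) and Pecam1 (-0.62, adjusted p = 0.00340), were lower in edgeR, as were 3.01% of all tested genes. The other stromal markers tested did not pass: Col1a1 (-0.78), Pdgfrb (-0.42), Col3a1 (-0.07), Cdh5 (-0.01), Dcn (0.03), Pdgfra (0.05) and Acta2 (0.35). The median log2 difference of the 9 was -0.07. Summed markers of dendritic cells came to 5.26 to 6.86 CPM and 6.97 to 8.37 CPM. Lymphocyte markers were near 0 (0.393 to 0.705 CPM and 0.438 to 0.608 CPM), and none of the 8 passed the expression filter. Osteoblast markers summed to 9.04 to 10.2 CPM and 12.1 to 14.2 CPM, all but little of it from Runx2 (higher by 0.43 on the log2 scale, adjusted p = 0.0343, edgeR), while the defining osteoblast genes Bglap2 and Ibsp had 0 counts in every library. The part of other cell types in the differences of Dcstamp, Nfatc1 and Oscar was not tested.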

How the data were processed

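RNA-seq of sorted TAMs was analysed for 3 Pdcd1f/f and 3 Pdcd1f/fLysMcre libraries, grouped by the labels. Raw counts for each Ensembl gene were deposited by the authors, made from stranded polyA libraries read as paired-end 42-nt reads. Per the submitters' processing notes, FastQC 0.11.5, Cutadapt 2.5, STAR 2.7.3a, featureCounts of Subread 1.6.2, DESeq2 1.24.0 and the build GRCm38 were used, whereas the strand setting and the handling of multi-mapped reads are not given in the sources used here. A normalized signal table of 16552 genes, deposited by the authors, holds the counts of each library divided by a size factor between 0.895 and 1.08, and the normalized counts in the text are these values, with SD over 3 libraries.

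Counts were compared with edgeR 4.0.16 in R 4.3.3 (filterByExpr with a minimum count of 10 and a minimum total of 15, TMM normalization, glmQLFit with robust estimation, two-sided glmQLFTest) with Benjamini-Hochberg adjustment over 14469 genes. RPKM values are CPM of the TMM-scaled library per kilobase of union exon length, computed here with the GENCODE M21 annotation of GRCm38, which also gave positions, GC content and symbols (for 14461 of the tested IDs). Alternatives were RLE size factors, library size alone, other expression filters, DESeq2 1.42.0, a block for the replicate number, limma-trend (limma 3.58.1) on the normalized table as log2(value + 1), loess offsets on GC content and length (span 0.5) with and without the block, and each library left out. The setting without both libraries that stand apart by GC content was added after the data were seen. Scripts were tested on simulated data.

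The 10 genes and the gene lists were chosen with earlier results of these data known, so the lists are described by counts and medians without a test of the list. Named were all 10 genes, the genes of each list past the threshold (up to 4 in each direction by smallest p) and the most abundant gene of each list. A list of differentiation repressors is not reported here. Tnfsf11, Atp6v0d1 and the genes of the closing section were named after their values were seen. The replicate numbers do not pair the libraries by any source: deviations from the genotype mean correlated at -0.01, -0.10 and 0.22 for equal numbers. No libraries were identical, and replicates differed by a chi-square of 5.42 to 43.0 per gene. Depth limits the precision of scarce genes such as Calcr. Promoters came from RefSeq.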

Additional observations from a re-analysis of the deposited data

How the results depend on the processing

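The direction of the log2 difference was the same in all 17 alternative fits for the 10 genes other than Acp5, which turned to 0.0724 with GC and length offsets, to 0.0721 with these offsets and the replicate block, and to 0.0172 without Pdcd1f/fLysMcre replicate 2, and ranged from -0.102 to 0.0172 with 1 library left out. Fcer1g turned to 0.0017 with the offsets and to 0.0014 with offsets and block. The number of genes past the threshold, 786, became 1951 with no filter beyond 1 count, 1598 with DESeq2, 2741 with GC and length offsets, 2818 with offsets and block, and 3757 without both libraries that stand apart by GC content, and lay between 222 and 3181 with 1 library left out. Of the 10 genes, 1 passed with library size alone, where 807 of all 14469 genes passed. Again 1 of the 10 passed over the genes of the normalized table, where 763 of all 16552 genes passed. By contrast, 6 of the 10 passed with offsets, 6 with offsets and block, and 6 without both libraries. With 1 library left out, 0 to 4 passed.

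Nfatc1 lost its call with library size alone (0.24) and over the genes of the normalized table (0.25), and leaving out 1 library gave 0.22 to 0.29. Oscar lost its call with RLE size factors (0.31), library size alone (0.30), no filter (0.31), the genes of the normalized table (0.31) and limma-trend (0.31), and leaving out 1 library gave 0.31 to 0.32. Dcstamp lost its call without Pdcd1f/fLysMcre replicate 1 (0.45), with 0.40 to 0.49 over the libraries left out. Calls were gained by Ocstamp with offsets (0.23) and with offsets and block (0.23), by Ctsk with offsets (-0.16), offsets and block (-0.16) and without both libraries (-0.16), and by Mmp9 without both libraries (-0.12). Atp6v0d2 gained a call with no filter (0.25), offsets (0.19), offsets and block (0.19), without both libraries (0.28) and without Pdcd1f/f replicate 1, with 0.19 to 0.34 over the libraries left out. The cause of these changes was not tested.

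The replicate numbers do not pair the libraries, and with the replicate number as a block 1027 genes and 2 of the 10 genes passed. Oscar alone lost its call there (0.32, adjusted p = 0.0675, edgeR).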

Other observations

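Several regulators of the osteoclast program lay just outside the threshold in edgeR, and they are given as values chosen after they were seen. Mitf, a transcription factor that acts with PU.1 on osteoclast genes, had a log2 difference of 0.25 (adjusted p = 0.0528, edgeR), and Fosl1, a subunit of AP-1, one of 0.37 (adjusted p = 0.0514, edgeR). Fos, the AP-1 subunit that acts upstream of NFATc1, had -0.28 (adjusted p = 0.0508, edgeR) and Irf8, a repressor of Nfatc1, -0.30 (adjusted p = 0.0519, edgeR). For each of the 4 genes the libraries of the genotypes did not overlap, an order that 27.5% of all tested genes showed in either direction. The genes were chosen for p-values near the threshold, which makes this order likely, so it adds no support to them. Relative to the ubiquitous pump subunit Atp6v0d1, Atp6v0d2 stood at 1.20 ± 0.188 in Pdcd1f/f and 1.49 ± 0.162 in Pdcd1f/fLysMcre TAMs per length (exact two-sided permutation test, p = 0.3). The ratio of Tnfrsf11a to Csf1r, the receptors of the cytokines that osteoclast precursors need, was 0.107 ± 0.0146 and 0.141 ± 0.0206 (exact two-sided permutation test, p = 0.2), with overlap between the genotypes. Within each genotype both ratios were highest in the library that stands apart by GC content.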
